A study of Mus musculus with 24 samples.

Results

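Nitric oxide (NO) and cyclic GMP (cGMP) signalling was followed through 9 genes in the hypothalamus of hypertensive BPH/2J and normotensive BPN/3J mice. The 9 genes were those whose gene symbol on the array was exactly Nos1, Nos3, Ddah1, Gucy1a2, Prkg1, Prkg2, Pde1b, Pde5a or Pde9a, each taken from the brightest of its single-symbol probe sets by the mean of the 24 arrays. They are 9 of the 19937 genes analysed, and all 9 were measured. They were chosen with earlier results of these data known, so the shares of all genes beside them are a description and not a test. At 26 weeks of age 0 of the 9 differed between the strains past an adjusted p of 0.05, against 1.32% of all genes called higher in BPH/2J and 1.34% called lower. At 6 weeks 6 of the 9 did, against 2.99% and 4.42% of all genes. Prkg1 and Nos1 were higher in BPH/2J, and Gucy1a2, Prkg2, Pde1b and Ddah1 were lower. Thalamus markers were lower in 5 of the 6 young BPH/2J arrays, and with their mean as a covariate 0 of the 9 were called. Over all genes 154 were called in that fit, against 1479 without the covariate. Prkg1 kept the largest difference of the 9 there.

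NO is a gas made from arginine by the NO synthases, and in neurons it passes between cells without a vesicle or a membrane receptor. It binds the haem of soluble guanylyl cyclase, which then makes cGMP. The second messenger acts through cGMP-dependent protein kinases, ion channels and phosphodiesterases, and the phosphodiesterases also end the signal by hydrolysing it. In the hypothalamus, neuronal NO synthase is found in the paraventricular and supraoptic nuclei, where NO is known to restrain sympathetic outflow and hormone release.

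The arrays hold total RNA of the whole hypothalamus of single male mice, with 6 mice in each of 4 groups: BPH/2J at 26 weeks, BPN/3J at 26 weeks, BPH/2J at 6 weeks and BPN/3J at 6 weeks. Both strains are inbred and come from the same selection programme, BPH/2J for raised and BPN/3J for normal blood pressure, so a strain difference can come from any locus at which they differ. All mice had standard housing with no treatment, and the tissue was taken at the daily peak of blood pressure. The values are log2 intensities after RMA, in which 1 unit is a doubling. They are relative to the other genes on the array, and values of different genes are not compared with each other. In bulk tissue fewer cells of a type and less RNA per cell cannot be told apart.

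The array medians lay between 5.89 and 6.09, and the median standard error of a difference between groups of n = 6 was 0.09 log2 units over all genes. Each of the 9 genes was above the median of the unnamed probe sets on all 24 arrays. The same held for 14 of 14 measured hypothalamus markers. Tissue markers differed between groups, most of all those of the thalamus at 6 weeks. The mean of 13 thalamus markers was 8.29 ± 0.66 in BPH/2J at 6 weeks (SD, n = 6; 7.51 to 9.30), against 9.38 ± 0.13 in BPN/3J at 6 weeks (9.28 to 9.65), and all 13 were called lower. Replicate 2 of BPH/2J at 6 weeks, at 9.30, was the only array of its group at the level of the other strain. At 26 weeks the same mean was 9.38 ± 0.12 in BPH/2J and 9.37 ± 0.30 in BPN/3J. The 26-week arrays were also not uniform. Replicates 5 and 6 of both strains lay apart from the other 8 arrays on the first principal component of the deviations from the group means, which held 41.9% of that variance, and the labels give no reason.

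Promoter sequences are shown for Prkg1 and Nos1, which were higher in BPH/2J at 6 weeks, and for Gucy1a2, which was lower, because the results turn on these opposite directions. Each window runs from 250 bases before to 50 bases after an annotated start and is given 5′ to 3′ on the gene's strand, from RefSeq on build GRCm38.p6. Prkg1 has 2 windows, for 2 annotated start sites. The annotated 5′ end of the gene, 31765268, lies within the upstream window and before its start site, so the windows may not cover every start. Capitals mark matches, on either strand, to GGGCGG (the GC box), TGACG (the core of the cAMP response element), CCAAT (the CCAAT box) and TATAAA (the TATA box). No matches overlapped in these windows.
Prkg1, upstream start, chr19:31764984-31765283, minus strand: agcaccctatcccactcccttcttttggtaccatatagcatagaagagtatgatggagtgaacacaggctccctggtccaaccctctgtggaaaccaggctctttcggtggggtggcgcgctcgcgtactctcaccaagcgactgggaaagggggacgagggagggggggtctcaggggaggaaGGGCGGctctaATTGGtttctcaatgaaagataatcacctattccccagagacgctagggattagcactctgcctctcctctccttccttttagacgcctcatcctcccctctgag
Prkg1, downstream start, chr19:31664321-31664620, minus strand: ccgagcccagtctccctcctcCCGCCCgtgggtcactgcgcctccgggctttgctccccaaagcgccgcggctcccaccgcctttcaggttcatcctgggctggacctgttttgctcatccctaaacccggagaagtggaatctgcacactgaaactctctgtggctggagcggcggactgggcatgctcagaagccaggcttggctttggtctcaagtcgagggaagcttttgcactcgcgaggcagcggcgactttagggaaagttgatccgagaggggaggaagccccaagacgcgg
Nos1, chr5:117866589-117866888, plus strand: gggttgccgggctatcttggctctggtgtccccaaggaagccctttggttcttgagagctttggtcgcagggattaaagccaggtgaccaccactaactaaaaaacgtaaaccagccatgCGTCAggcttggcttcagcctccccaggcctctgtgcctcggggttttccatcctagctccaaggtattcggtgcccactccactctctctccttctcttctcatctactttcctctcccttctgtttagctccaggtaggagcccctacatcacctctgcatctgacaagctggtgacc
Gucy1a2, chr9:3532099-3532398, plus strand: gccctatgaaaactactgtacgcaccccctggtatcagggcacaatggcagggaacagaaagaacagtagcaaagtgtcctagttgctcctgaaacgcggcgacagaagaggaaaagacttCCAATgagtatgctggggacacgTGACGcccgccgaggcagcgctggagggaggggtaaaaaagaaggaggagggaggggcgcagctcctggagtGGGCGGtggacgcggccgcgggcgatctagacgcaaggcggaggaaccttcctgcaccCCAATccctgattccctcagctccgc

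Both Prkg1 windows held 1 GC box, which starts at -66 from the upstream start site and at -229 from the downstream one, with the start site counted as 0. The upstream window also held 1 CCAAT box. The Nos1 window held 1 response element core, on the reverse strand, and none of the other motifs. The Gucy1a2 window held 1 GC box, 1 response element core and 2 CCAAT boxes. None of the 4 windows held a TATA box. Over 32851 windows of the same length, the GC box was found in 35.7%, the response element core in 20.8%, the CCAAT box in 37.4% and the TATA box in 13.6%. A match is a run of letters and not a known binding site.

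The first question was whether the pathway differs with inherited blood pressure, in adults and in young mice. At 26 weeks 0 of the 9 genes were called in limma. An unadjusted p under 0.05 was found for 1 of the 9 and for 2488 of all 19937 genes. The median of their 9 differences was -0.04, against 0.01 over all genes, and the median absolute difference was 0.08 for both. At 6 weeks 2 of 9 were called higher and 4 of 9 lower. The median difference was then -0.29, against 0.01 over all genes, and the median absolute difference was 0.30, against 0.08. The groups did not overlap for 0 of 9 genes at 26 weeks, against 1.75% of all genes, and for 3 of 9 at 6 weeks, against 5.44%. The values over all genes describe a list chosen with earlier results of these data known, and are not a test of it.

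**Figure D1:**
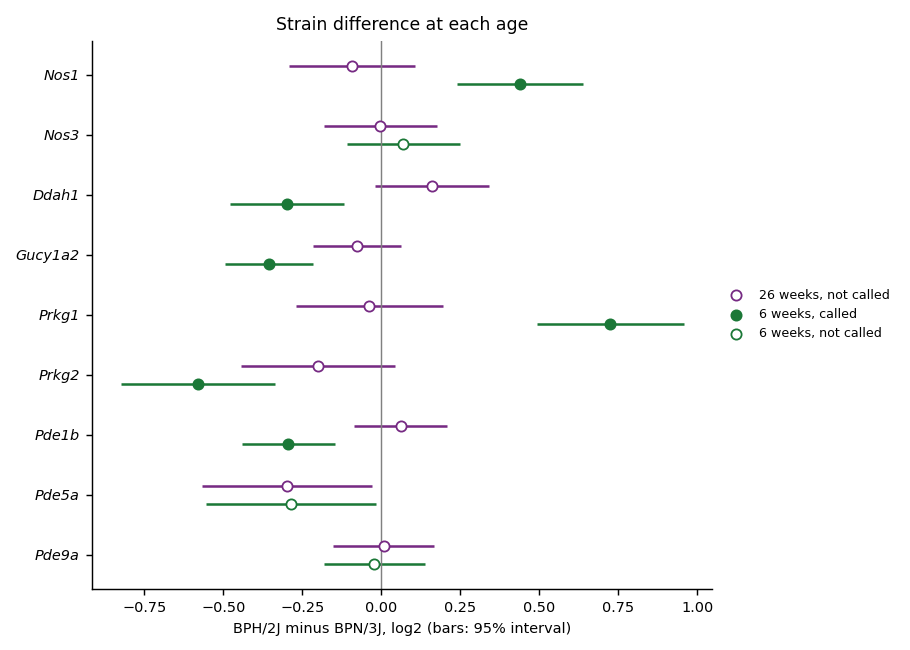
Difference between BPH/2J and BPN/3J for each gene at 26 and at 6 weeks, in log2 units, with 95% intervals from the fit (n = 6 per group). Filled points passed an adjusted p of 0.05. All 9 points at 26 weeks are open, and 6 of 9 at 6 weeks are filled, with Prkg1 at 0.72 and Prkg2 at -0.58 as the extremes.

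Among the synthases, Nos1 encodes the neuronal enzyme (chromosome 5, 117866839 to 117958840 in GRCm38.p6). At 26 weeks its values ran from 7.47 to 7.72 in BPH/2J with a median of 7.64, against 7.53 to 7.88 in BPN/3J with a median of 7.70. The ranges overlapped, and the difference was -0.09 (95% interval -0.29 to 0.11, adjusted p = 0.795). At 6 weeks Nos1 ran from 7.91 to 8.50 in BPH/2J with a median of 8.16, against 7.44 to 7.93 in BPN/3J with a median of 7.80. Only the lowest BPH/2J array, replicate 2, lay within the BPN/3J range. Nos1 was 0.44 ± 0.10 (SE) higher in young BPH/2J, or 1.35-fold, with an adjusted p of 0.00448.

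Nos3, the endothelial synthase (chromosome 5, 24364816 to 24384474), was not called in any comparison. It averaged 6.14 ± 0.14 in BPH/2J and 6.14 ± 0.24 in BPN/3J at 26 weeks (SD, n = 6), and 6.28 ± 0.12 in BPH/2J and 6.21 ± 0.04 in BPN/3J at 6 weeks. The 95% interval of the strain difference was -0.18 to 0.18 at 26 weeks and -0.11 to 0.25 at 6 weeks. The young BPN/3J arrays kept within 6.15 and 6.28, while 1 adult BPN/3J array reached 6.58. The mean of 11 endothelial markers was likewise close between the strains, at 7.43 in BPH/2J and 7.39 in BPN/3J at 26 weeks, and at 7.30 in BPH/2J and 7.32 in BPN/3J at 6 weeks.

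Ddah1 degrades asymmetric dimethylarginine, an endogenous inhibitor of the NO synthases (chromosome 3, 145758692 to 145894277). At 26 weeks it ran from 10.29 to 10.81 in BPH/2J with a median of 10.47, against 10.18 to 10.48 in BPN/3J with a median of 10.30. The groups overlapped, and the difference of 0.16 was not called (95% interval -0.02 to 0.34, adjusted p = 0.485). At 6 weeks it ran from 10.12 to 10.64 in BPH/2J with a median of 10.21, against 10.46 to 10.68 in BPN/3J with a median of 10.59. In young BPH/2J 5 of 6 arrays lay below every BPN/3J array, and replicate 2 lay at the upper end of the BPN/3J range. Ddah1 was lower by 0.30 in BPH/2J (difference -0.30 ± 0.09, SE, 0.814-fold, adjusted p = 0.0362). This was the least stable of the 6 calls, and it was lost in 10 of 24 fits that left out 1 array, with adjusted p up to 0.0998: without any of the young arrays BPH/2J 1, 3, 4, 5 and 6 and BPN/3J 2, 3, 4, 5 and 6.

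Gucy1a2 encodes the alpha-2 subunit of the NO-sensitive guanylyl cyclase (chromosome 9, 3532349 to 3905791). At 26 weeks it ran from 9.29 to 9.46 in BPH/2J with a median of 9.35, against 9.36 to 9.54 in BPN/3J with a median of 9.43, and the difference was -0.08 (95% interval -0.21 to 0.06, adjusted p = 0.742). In young mice it ran from 8.81 to 9.20 in BPH/2J with a median of 8.93, against 9.07 to 9.45 in BPN/3J with a median of 9.36. The overlap came from the highest BPH/2J array and the lowest BPN/3J array. Gucy1a2 was lower in young BPH/2J by a difference of -0.36 ± 0.07 (SE, 0.781-fold, adjusted p = 0.00121). Gucy1a1 and Gucy1b1, which encode other subunits of the enzyme, were not called at 6 weeks. The difference was 0.03 for Gucy1a1 (adjusted p = 0.936) and -0.07 for Gucy1b1 (adjusted p = 0.708).

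The cGMP-dependent kinases gave the largest differences of the 9 genes at 6 weeks, in opposite directions. Prkg1 encodes kinase type I, which phosphorylates targets in neurons and smooth muscle (chromosome 19, 30564487 to 31765268). At 26 weeks it ran from 6.53 to 7.26 in BPH/2J with a median of 7.16, against 6.77 to 7.33 in BPN/3J with a median of 7.09. The strains overlapped throughout, and the difference was -0.04 (95% interval -0.27 to 0.20, adjusted p = 0.949). At 6 weeks it ran from 7.14 to 7.64 in BPH/2J with a median of 7.43, against 6.42 to 6.82 in BPN/3J with a median of 6.73. The groups did not overlap. Prkg1 was 0.72 ± 0.11 (SE) higher in young BPH/2J, or 1.65-fold (95% interval 1.41 to 1.94), with an adjusted p of 0.000131. In order of their means, BPH/2J at 6 weeks stood highest at 7.42, then BPN/3J and BPH/2J at 26 weeks at 7.08 and 7.04, which did not differ beyond their spread, and BPN/3J at 6 weeks lowest at 6.69.

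Prkg2 encodes kinase type II, a membrane-bound form (chromosome 5, 98929773 to 99037375). At 26 weeks it ran from 6.97 to 7.42 in BPH/2J with a median of 7.10, against 6.96 to 7.49 in BPN/3J with a median of 7.38, and the difference of -0.20 was not called (95% interval -0.44 to 0.04, adjusted p = 0.532). In young mice it ran from 6.42 to 7.22 in BPH/2J with a median of 6.85, against 7.29 to 7.62 in BPN/3J with a median of 7.35. Every young BPH/2J array lay below every young BPN/3J array. Prkg2 was lower by a difference of -0.58 ± 0.12 (SE, 0.669-fold, adjusted p = 0.00226). Its SD in young BPH/2J was 0.33, against 0.13 in young BPN/3J. A further probe set named Prkg2, not used here, averaged 3.99 and was at or below the median of the unnamed probe sets on all 24 arrays.

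Pde1b is a calmodulin-activated phosphodiesterase that hydrolyses cGMP and cAMP (chromosome 15, 103503034 to 103530056). At 26 weeks it ran from 10.03 to 10.52 in BPH/2J with a median of 10.18, against 10.10 to 10.25 in BPN/3J with a median of 10.18, and the difference of 0.06 was not called (adjusted p = 0.825). In young mice it ran from 9.83 to 10.16 in BPH/2J with a median of 9.90, against 10.15 to 10.32 in BPN/3J with a median of 10.20. In young BPH/2J 5 of 6 arrays lay below every BPN/3J array, and only replicate 2 reached them. Pde1b was lower by a difference of -0.29 ± 0.07 (SE, 0.816-fold, adjusted p = 0.00982).

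Pde5a, the cGMP-specific phosphodiesterase that sildenafil inhibits, lies on chromosome 3 (122729158 to 122859374). At 26 weeks it ran from 5.49 to 6.21 in BPH/2J with a median of 5.89, against 5.77 to 6.64 in BPN/3J with a median of 6.13. At 6 weeks it ran from 5.35 to 5.52 in BPH/2J with a median of 5.47, against 5.57 to 5.92 in BPN/3J with a median of 5.77. The young groups did not overlap and the adult groups did. The difference was -0.30 ± 0.13 at 26 weeks (SE, adjusted p = 0.319) and -0.29 ± 0.13 at 6 weeks (adjusted p = 0.231), and neither was called. When only the 6-week arrays entered the fit, so that the wide adult spread was left out, the same 6-week difference had an adjusted p of 0.0135.

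Pde9a, a phosphodiesterase with high affinity for cGMP (chromosome 17, 31386105 to 31476309), was nearly equal in the strains at both ages. It averaged 7.77 ± 0.13 in BPH/2J and 7.77 ± 0.19 in BPN/3J at 26 weeks (SD, n = 6), and 7.66 ± 0.06 in BPH/2J and 7.69 ± 0.10 in BPN/3J at 6 weeks. The 95% interval of the strain difference was -0.15 to 0.17 at 26 weeks and -0.18 to 0.14 at 6 weeks.

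**Figure D2:**
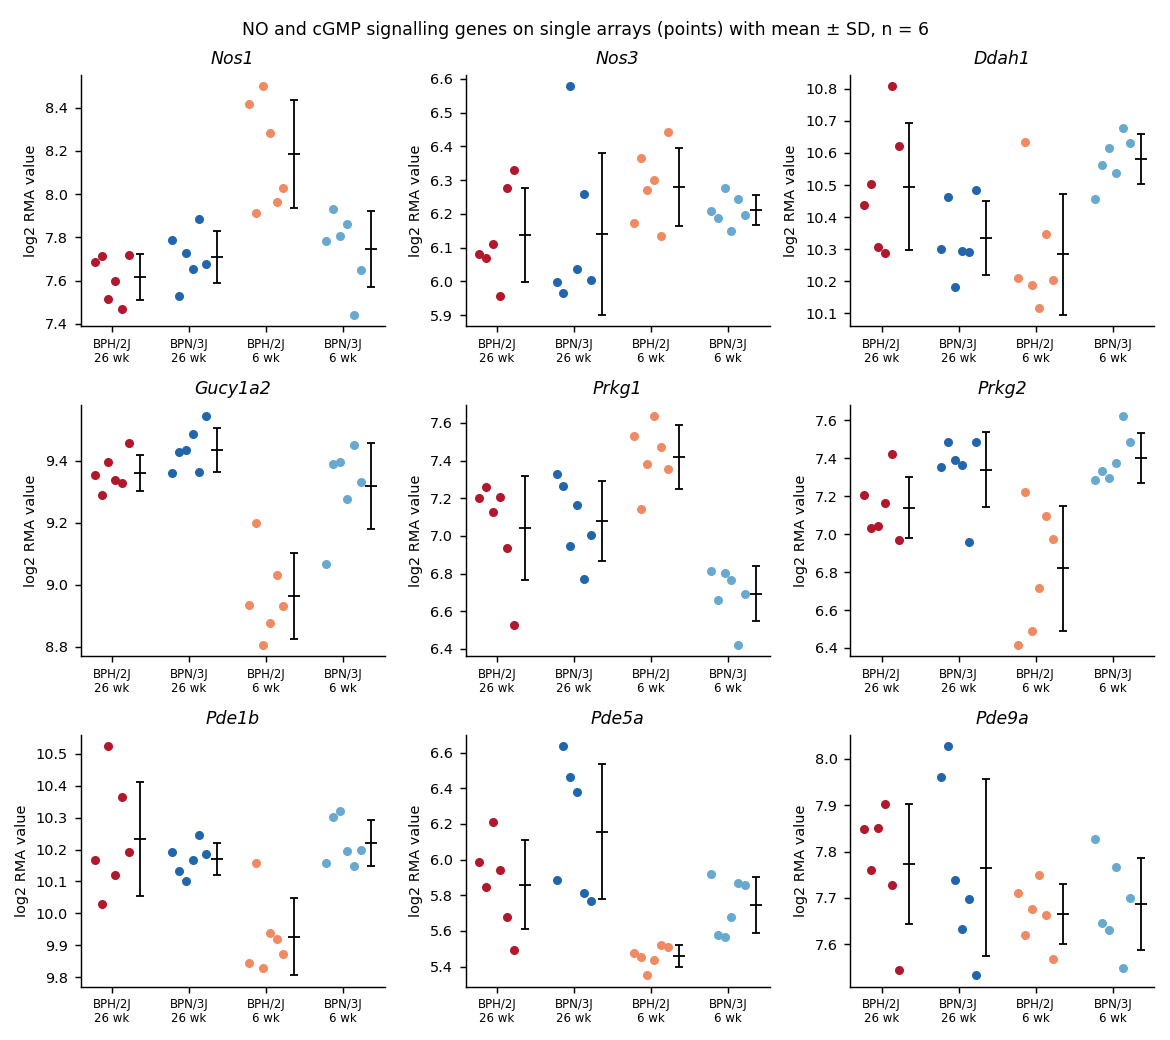
Log2 RMA value of each gene on every array (points, replicates 1 to 6 from left to right) with the group mean and SD (n = 6), for BPH/2J and BPN/3J at 26 weeks and then at 6 weeks. At 6 weeks the strains do not overlap for Prkg1, Prkg2 and Pde5a, and for Pde1b and Ddah1 a single BPH/2J array lies among the BPN/3J arrays; each vertical axis has its own range and does not start at 0.

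Replicate 2 of BPH/2J at 6 weeks, whose thalamus mean of 9.30 was within the BPN/3J range, read 7.91 for Nos1, 10.64 for Ddah1, 9.20 for Gucy1a2, 7.22 for Prkg2 and 10.16 for Pde1b. Of these the values of Nos1, Ddah1, Gucy1a2 and Pde1b lay within the BPN/3J range and that of Prkg2 just below it. Its Prkg1 value of 7.14 remained above the highest young BPN/3J array, at 6.82. Without this array the 6 calls were kept, with differences of 0.78 for Prkg1, 0.49 for Nos1, -0.66 for Prkg2, -0.40 for Gucy1a2, -0.37 for Ddah1 and -0.34 for Pde1b.

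With the thalamus mean as a covariate, 0 of the 9 genes were called at 6 weeks, and 154 of all genes were, against 1479 without it. Of the 9 genes, Prkg1 had the largest remaining difference, 0.62 (adjusted p = 0.126). The difference was 0.05 for Nos1, 0.00 for Prkg2, -0.01 for Ddah1, -0.16 for Gucy1a2 and -0.18 for Pde1b, with adjusted p of 0.841 or above. The thalamus means of the young strains overlapped for 1 BPH/2J array, so strain and thalamus level are nearly confounded and their parts in these differences cannot be told apart. Beside these, 7 of 14 hypothalamus markers were called higher in young BPH/2J, with list means of 7.88 to 8.69 in BPH/2J and 7.28 to 7.94 in BPN/3J. Of 11 oligodendrocyte markers 6 were called lower, with list means of 9.37 to 10.22 in BPH/2J and 9.86 to 10.50 in BPN/3J, and the part of either list in the result was not tested.

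**Figure D3:**
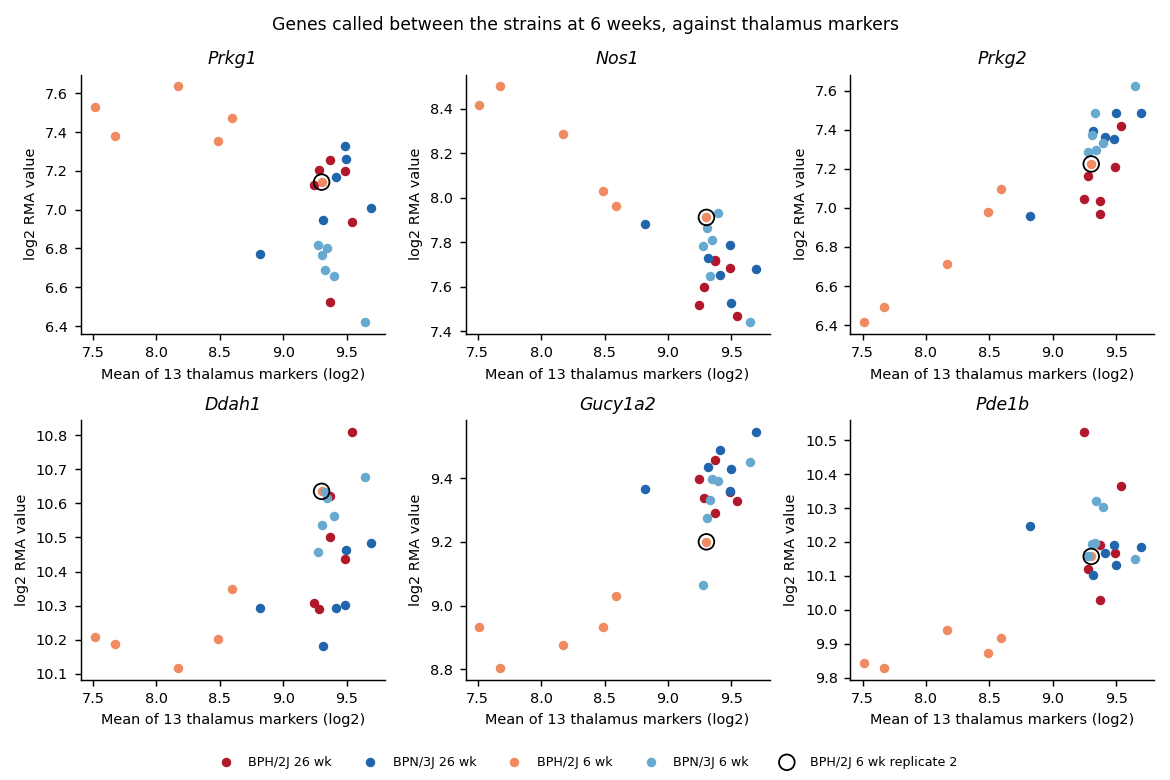
Log2 RMA value of the 6 genes called between the strains at 6 weeks against the mean of 13 thalamus markers on the same array, for all 24 arrays. The circled point is replicate 2 of BPH/2J at 6 weeks, which lies at 9.30 on the horizontal axis, while the other 5 arrays of its group lie between 7.51 and 8.59; axes do not start at 0.

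A second question was how the genes change between young and adult mice of each strain. In BPH/2J 3 of 9 genes were called higher and 2 of 9 lower at 26 than at 6 weeks, against 8.23% and 8.64% of all genes. In BPN/3J 2 of 9 were called higher and 0 lower, against 4.6% and 7.66%. The ages did not overlap for 2 of 9 genes in BPH/2J, Nos1 and Gucy1a2, against 4.05% of all genes, and for 0 of 9 in BPN/3J, against 4.57%. The median of the 9 differences was 0.21 in BPH/2J and -0.04 in BPN/3J, and over all genes it was -0.03 in both. These comparisons use the same arrays as the strain comparisons, so a group that is high or low at 6 weeks enters both.

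Nos1 fell with age in BPH/2J: it read 7.47 to 7.72 at 26 weeks, against 7.91 to 8.50 at 6 weeks, with no overlap. The difference was -0.57 ± 0.10 (SE, 0.675-fold, adjusted p = 0.000477), and in BPN/3J it was -0.04 (adjusted p = 0.834). The thalamus mean differed between the same BPH/2J groups, at 9.38 at 26 weeks and 8.29 at 6 weeks, and with it as a covariate 0 of the 9 genes were called with age in BPH/2J, and the Nos1 difference was -0.18 (adjusted p = 0.537). With that covariate the difference was 0.20 for Gucy1a2 (adjusted p = 0.418) and 0.19 for Pde1b (adjusted p = 0.499). Without it, Gucy1a2 rose in BPH/2J, reading 9.29 to 9.46 at 26 weeks, against 8.81 to 9.20 at 6 weeks, again with no overlap. Its difference was 0.40 ± 0.07 (SE, 1.32-fold, adjusted p = 0.000458) in BPH/2J and 0.12 (adjusted p = 0.251) in BPN/3J. Pde1b rose in BPH/2J by 0.31 ± 0.07 (adjusted p = 0.00494), and its difference in BPN/3J was -0.05 (adjusted p = 0.678).

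Prkg1 was called with age in both strains, in opposite directions. In BPH/2J it fell, with a difference of -0.38 ± 0.11 (SE, 0.771-fold, adjusted p = 0.0236), and in BPN/3J it rose, with a difference of 0.39 ± 0.11 (1.31-fold, adjusted p = 0.0285). The call in BPH/2J was lost without replicate 1 or 4 of BPH/2J at 6 weeks, with adjusted p up to 0.0594. The call in BPN/3J was lost without replicate 1, 2 or 4 of BPN/3J at 26 weeks or replicate 5 at 6 weeks, with adjusted p up to 0.0756.

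Pde5a was called higher at 26 weeks in both strains, by 0.40 ± 0.13 in BPH/2J (SE, 1.32-fold, adjusted p = 0.0356) and by 0.41 ± 0.13 in BPN/3J (1.33-fold, adjusted p = 0.0391). Leaving out 1 array ended the call in 9 of 24 fits in BPH/2J, with adjusted p up to 0.101, and in 7 of 24 in BPN/3J, with adjusted p up to 0.119. The arrays concerned were replicates 1 to 4 at 26 weeks and 1, 3, 4, 5 and 6 at 6 weeks for BPH/2J, and replicates 2 to 4 at 26 weeks and 1 to 4 at 6 weeks for BPN/3J. The mean of 7 choroid plexus markers spread widely in the same adult groups, from 6.01 to 8.33 in BPH/2J and from 5.91 to 8.79 in BPN/3J at 26 weeks, against 5.999 to 7.002 in BPH/2J and 5.95 to 6.46 in BPN/3J at 6 weeks. Its part in the Pde5a difference was not tested.

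The age differences of the other 4 genes were not called in either strain. Ddah1 differed by 0.21 in BPH/2J (adjusted p = 0.0987) and by -0.25 in BPN/3J (adjusted p = 0.0648). Prkg2 differed by 0.32 in BPH/2J (adjusted p = 0.0641) and by -0.06 in BPN/3J (adjusted p = 0.772). Without replicate 2 of BPH/2J at 6 weeks, Ddah1 and Prkg2 were also called higher with age in BPH/2J (adjusted p = 0.0168 and 0.0163), and 7 of the 9 genes were then called. Over all genes 3966 were called without that array, against 3362 with it. With the thalamus mean as a covariate 8 of all genes were called, against 3362 without it. Nos3 differed by -0.14 in BPH/2J and -0.07 in BPN/3J, and Pde9a by 0.11 in BPH/2J and 0.08 in BPN/3J.

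**Figure D4:**
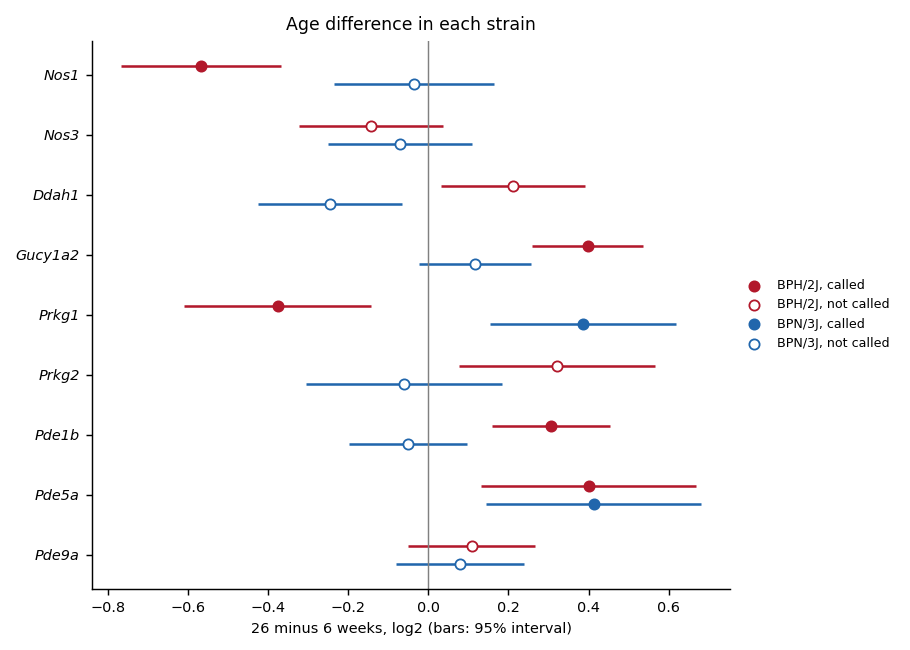
Difference between 26 and 6 weeks for each gene in BPH/2J and in BPN/3J, in log2 units, with 95% intervals from the fit (n = 6 per group). Filled points passed an adjusted p of 0.05, 5 of 9 in BPH/2J and 2 of 9 in BPN/3J, and Prkg1 is filled on opposite sides of 0, at -0.38 and 0.39.

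Whether the strain difference itself changed with age was tested as the strain by age interaction, the difference at 26 weeks minus that at 6 weeks. In limma 0 of the 9 genes were called, against 0.00502% of all genes called higher and 0.0251% called lower. An unadjusted p under 0.05 was found for 6 of the 9 genes and for 2160 of all 19937 genes. Prkg1 came nearest, at -0.76 ± 0.16 (SE, 95% interval -1.09 to -0.43, adjusted p = 0.0597), followed by Nos1 at -0.53 ± 0.14 (adjusted p = 0.0896), Ddah1 at 0.46 ± 0.12 (adjusted p = 0.106) and Pde1b at 0.36 ± 0.10 (adjusted p = 0.123). The loss of a strain difference between 6 and 26 weeks was therefore not established for any of the 9 genes in this fit. The count changed with the arrays and settings used. Without replicate 2 of BPH/2J at 6 weeks, 5 of the 9 were called, Prkg1 (-0.82, adjusted p = 0.00486), Ddah1 (0.53, adjusted p = 0.00847), Nos1 (-0.58, adjusted p = 0.0156), Pde1b (0.40, adjusted p = 0.0222) and Gucy1a2 (0.33, adjusted p = 0.0495). Over all genes 496 were called without that array, against 6 with all arrays. With array weights 4 of the 9 were called, and 683 of all genes. Without replicate 5 of BPN/3J at 26 weeks Prkg1 alone of the 9 was called, and likewise with replicate number as a block (adjusted p = 0.039), with dim genes left out, with quantile normalization and with trend and robust settings for the spread. In these fits 23 to 34 of all genes were called.

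The adult values of some of the 9 genes also followed the split of the 26-week arrays. Prkg1 averaged 6.73 in replicates 5 and 6 and 7.20 in replicates 1 to 4 of BPH/2J, and 6.89 and 7.18 in the same replicates of BPN/3J. Pde5a averaged 5.59 in replicates 5 and 6 and 6.00 in replicates 1 to 4 of BPH/2J, and 5.79 and 6.34 in BPN/3J. Ddah1 averaged 10.72 in replicates 5 and 6 and 10.38 in replicates 1 to 4 of BPH/2J, and 10.39 and 10.31 in BPN/3J. Pde9a averaged 7.64 in replicates 5 and 6 and 7.84 in replicates 1 to 4 of BPH/2J, and 7.62 and 7.84 in BPN/3J. In BPN/3J the sides of the split overlapped for Prkg1, Ddah1 and Pde9a. Both sides of the split held both strains, so the strain difference at 26 weeks could be taken with a term for it. In that fit 0 of 9 genes were called, and 881 of all genes, against 532 in the main fit. For the interaction 2 of 9 were called with that term, Prkg1 (adjusted p = 0.0122) and Ddah1 (adjusted p = 0.0414), and 251 of all genes. Without the 4 arrays the strain difference of Prkg1 at 26 weeks was 0.02, and its age difference in BPH/2J was -0.22 and no longer called (adjusted p = 0.0604).

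Beyond the 9 genes, 63 measured genes of 6 further groups of the pathway were followed, 44 of them above the median of the unnamed probe sets on all arrays. Between the strains, 3 of the 63 were higher in BPH/2J and 0 lower at 26 weeks, and 5 were higher and 3 lower at 6 weeks. Over all genes 1.32% were called higher and 1.34% lower at 26 weeks, and 2.99% and 4.42% at 6 weeks. The median difference was 0.02 at 26 weeks and 0.06 at 6 weeks, against 0.01 over all genes at each age. For the interaction 0 of 63 were called.

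The strain differences that were called at both ages lay in this wider pathway. Dynll1, a dynein light chain that binds neuronal NO synthase, ran from 8.01 to 8.70 in BPH/2J and from 7.43 to 7.83 in BPN/3J at 26 weeks, with no overlap, and was 0.68 ± 0.12 higher (SE, adjusted p = 0.000612). At 6 weeks it ran from 7.98 to 8.47 in BPH/2J and from 7.22 to 8.07 in BPN/3J, and was 0.61 ± 0.12 higher (adjusted p = 0.00135). Arg2, a mitochondrial arginase that uses the same substrate as the synthases, ran from 6.41 to 6.79 in BPH/2J and from 5.62 to 6.39 in BPN/3J at 26 weeks, and from 6.10 to 6.59 in BPH/2J and 5.47 to 5.95 in BPN/3J at 6 weeks. The strains did not overlap for Arg2 at either age, and the differences were 0.62 ± 0.11 at 26 weeks (adjusted p = 0.00108) and 0.64 ± 0.11 at 6 weeks (adjusted p = 0.000493). With the thalamus covariate the 6-week difference of Dynll1 was 0.73 with an adjusted p of 0.0598, and that of Arg2 was 0.90 and still called (adjusted p = 0.00247).

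Of the other NO synthase partners, Nos1ap, an adaptor of neuronal NO synthase, was 0.28 ± 0.06 higher in adult BPH/2J (SE, adjusted p = 0.0139), which ran from 7.74 to 7.99, against 7.41 to 7.66 in adult BPN/3J, with no overlap. Averaged over all its probe sets the difference was 0.20 and not called (adjusted p = 0.255). With replicate number as a block in the 26-week arrays alone, the 0.28 had an adjusted p of 0.0506. In a fit of only the 26-week arrays with no block it had 0.0937. Same-numbered arrays of the strains varied together there, but both strains share the split of these arrays and the labels give no pairs. Slc7a1, a cationic amino acid transporter that brings arginine into cells, was 0.26 ± 0.08 higher in young BPH/2J (adjusted p = 0.0363), a call lost in 8 of 24 fits without 1 array, for the young arrays BPH/2J 1, 3, 4 and 6 and BPN/3J 1, 4, 5 and 6, with adjusted p up to 0.103. Its difference of 0.26 at 26 weeks had an adjusted p of 0.0745. Slc7a1 also fell with age in both strains, with differences of -0.43 ± 0.08 in BPH/2J (adjusted p = 0.000789) and -0.43 ± 0.08 in BPN/3J (adjusted p = 0.00258).

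Upstream of cGMP, Qdpr, which regenerates the tetrahydrobiopterin cofactor of the synthases, was lower in young BPH/2J by a difference of -0.37 ± 0.09 (SE, adjusted p = 0.0124), and by -0.36 with the thalamus covariate, where it was not called (adjusted p = 0.45). Beside it the mean of 11 oligodendrocyte markers was 9.75 in young BPH/2J and 10.27 in young BPN/3J, and its part in the difference was not tested. It was the only called gene of 5 of the cofactor group. Of 14 guanylyl cyclases and natriuretic peptide genes only Npr2, the cyclase that is the receptor of C-type natriuretic peptide, was called between the strains, higher in young BPH/2J by 0.32 ± 0.08 (adjusted p = 0.0157), and by 0.27 with the thalamus covariate, where it was not called (adjusted p = 0.642). Of 13 other cGMP phosphodiesterases 0 were called between the strains at either age. Over all genes 2.99% were called higher and 4.42% lower at 6 weeks, and 1.32% and 1.34% at 26 weeks. The counts of the cyclase and phosphodiesterase groups lie near these shares.

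Among 14 targets of cGMP, 3 were called at 6 weeks and 0 at 26 weeks. The shares over all genes, higher and then lower, were 2.99% and 4.42% at 6 weeks, and 1.32% and 1.34% at 26 weeks. Mrvi1, a substrate of kinase type I that restrains calcium release, ran from 5.73 to 6.73 in young BPH/2J, against 6.55 to 6.85 in young BPN/3J, and differed by -0.49 ± 0.12 (SE, adjusted p = 0.0102). Kcnmb4, a subunit of the large-conductance calcium-activated potassium channel, differed by -0.44 ± 0.11 (adjusted p = 0.0128) with no overlap. Rgs2, a regulator of G protein signalling that kinase type I phosphorylates, ran from 8.65 to 8.99 in young BPH/2J, against 8.09 to 8.43 in young BPN/3J, and was 0.52 ± 0.15 higher (adjusted p = 0.0351). The Rgs2 call was lost in 9 of 24 fits that left out 1 array, namely the young arrays BPH/2J 1, 3, 4 and 5 and BPN/3J 1, 2, 3, 5 and 6, with adjusted p up to 0.0936. With the thalamus covariate the differences were -0.03 for Mrvi1, -0.03 for Kcnmb4 and 0.39 for Rgs2, and none was called.

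The age comparison called 6 of these 63 higher and 4 lower at 26 weeks in BPH/2J, and 3 higher and 5 lower in BPN/3J. The shares over all genes, higher and then lower, were 8.23% and 8.64% for BPH/2J, and 4.6% and 7.66% for BPN/3J, so these counts lie near the background, and the genes below are values of single genes. In BPH/2J the largest of those named was Kcnmb2, another subunit of the same potassium channel, at 0.73 ± 0.12 (SE, adjusted p = 0.000347), followed by Mrvi1 at 0.70 ± 0.12 (adjusted p = 0.000439). Pde10a, a striatum-rich phosphodiesterase, differed by 0.46 ± 0.14 (adjusted p = 0.028). Its highest adult array, replicate 3 at 9.41, against 8.20 to 8.54 for the other 5, also had the highest mean of striatum markers in the group, 8.23 against 6.95 to 7.37, whose part was not tested. Nostrin, which traffics endothelial NO synthase, differed by 0.46 ± 0.12 (adjusted p = 0.00998). In BPN/3J Nppc, the gene of C-type natriuretic peptide, fell by 0.47 ± 0.10 on the log2 scale (adjusted p = 0.0083), Qdpr fell by 0.39 ± 0.09 (adjusted p = 0.0112), beside an oligodendrocyte marker mean of 9.81 at 26 weeks and 10.27 at 6 weeks, and Rgs2 rose by 0.50 ± 0.15 (adjusted p = 0.0322). The remaining age calls were those of Nosip (0.46), Nos1ap (0.24), Slc7a2 (-0.27), Pde6b (-0.26) and Vasp (-0.23) in BPH/2J, and of Npr1 (0.35), Pde1c (0.31), Nos2 (-0.27) and Vasp (-0.28) in BPN/3J. Nosip and Vasp lie outside the rule for named genes and were added after their values were seen. Pde6b was at or below the median of the unnamed probe sets on all 24 arrays.

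Several of these age calls hung on single arrays of the groups compared. In BPH/2J the Pde10a call was lost in 5 of 24 fits, without replicate 3 at 26 weeks, where its difference was 0.28, or replicate 1, 3, 4 or 6 at 6 weeks. The Slc7a2 call was lost in 9, without replicate 1, 2, 4 or 5 at 26 weeks or 1, 3, 4, 5 or 6 at 6 weeks. In BPN/3J the Nos2 call was lost in 7 fits, without replicate 1, 2 or 6 at 26 weeks or 1, 3, 4 or 5 at 6 weeks, and the Npr1 call in 8, without any of replicates 1 to 4 at either age. The Pde1c call was lost in 6, without replicate 1 or 2 at 26 weeks or 1, 3, 4 or 5 at 6 weeks, and the Rgs2 call in 7, without replicate 1, 2 or 4 at 26 weeks or 1, 2, 3 or 5 at 6 weeks. Nostrin in BPH/2J and Rgs2 in BPN/3J also followed the split of the 26-week arrays. Adult Nostrin read 5.75 and 5.89 in replicates 5 and 6 and 6.06 to 6.57 in replicates 1 to 4. Young BPH/2J ran from 5.45 to 5.85. Adult Rgs2 read 8.55 and 8.23 in replicates 5 and 6 and 8.70 to 9.14 in replicates 1 to 4. Young BPN/3J ran from 8.09 to 8.43. With the thalamus covariate 0 of the BPH/2J age calls of Nos1ap, Nostrin, Slc7a1, Slc7a2, Pde6b, Pde10a, Mrvi1 and Kcnmb2 were kept.

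**Figure D5:**
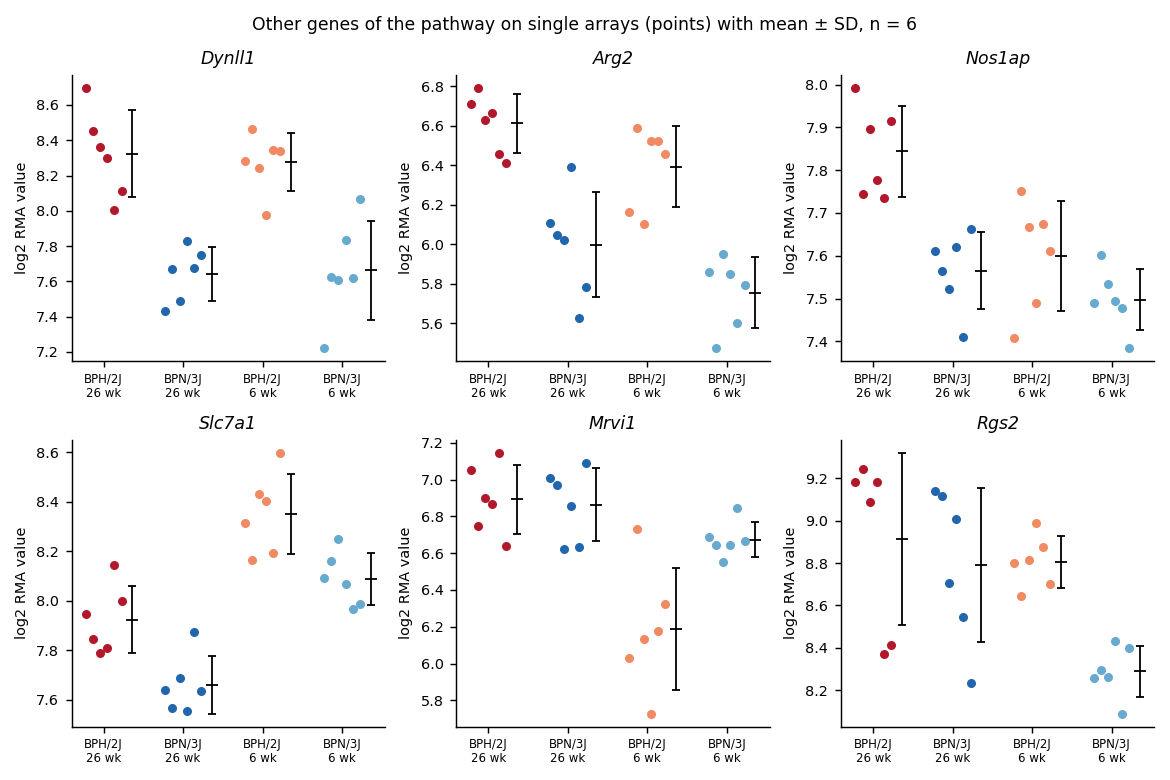
Log2 RMA value on every array (points) with the group mean and SD (n = 6) for 6 further genes of the pathway, for BPH/2J and BPN/3J at 26 weeks and then at 6 weeks. Arg2 does not overlap between the strains at either age, and Rgs2 does not at 6 weeks; each vertical axis has its own range and does not start at 0.

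Within groups the 9 genes did not vary as a block. Likeness was taken as Pearson's r over 24 arrays after the group mean was subtracted, as a description with no test, since arrays share the tissue differences given above. Among the 9 genes themselves it reached 0.71 for Prkg1 with Pde9a and -0.87 for Nos1 with Prkg2. With the thalamus marker mean, taken in the same way, r was 0.90 for Prkg2 and -0.76 for Nos1. It was 0.63 for Ddah1, 0.63 for Gucy1a2, 0.33 for Pde1b and -0.18 for Prkg1. With the hypothalamus marker mean r ran from -0.46 for Gucy1a2 to 0.65 for Prkg1. With the choroid plexus marker mean it was 0.81 for Pde5a. The part of these tissue levels in the likeness was not tested. Prkg1 was most like Gda, Sf3b3 and Fezf1 (0.94, 0.90 and 0.90), Prkg2 most like Eml1, Pdp1 and Kcnc2 (0.92, 0.91 and 0.91), and Nos1 most like Il34, Arnt2 and Unc5a (0.78, 0.77 and 0.77). Ddah1 was most like Mgat5b, Inpp5a and Acsl4 (0.90, 0.90 and 0.88), Gucy1a2 most like Ttc39b, Atxn1 and Strbp (0.83, 0.83 and 0.82), and Nos3 most like Naaladl1, Ptprcap and Socs1 (0.85, 0.84 and 0.84). For the phosphodiesterases the nearest were Man1a, Ctsc and Lum for Pde5a (0.88, 0.87 and 0.86), Efhb, Sf3b5 and Mttp for Pde9a (0.87, 0.87 and 0.86), and Olfr578, Gpr158 and Pde10a for Pde1b (0.68, 0.67 and 0.67).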

How the data were processed

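Total RNA of 24 hypothalami was measured on Affymetrix Mouse Gene 1.0 ST arrays, 1 mouse each, and the deposited table holds log2 values of 34760 probe sets, which the authors made with RMA (submitters' processing notes; limma is listed there too). Tool versions and array annotation: not given in the sources used here. RMA normalizes the probes between arrays, so values are relative to the other genes of an array. The table spans 1.54 to 14.3, and 0 values were missing. Precision depends on the number of arrays, as there is no depth to count.

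Titles gave each array's group and replicate number. BPN/3J is named as in the labels, although the series text has BPN/2J in 1 place. Of the probe sets, 21640 had 1 gene symbol, 1321 had several and 11799 were unnamed. A gene was read from its single-symbol probe set with the highest mean, which gave 19937 genes, 954 of them with several probe sets. Positions and promoters are from RefSeq, assembly GRCm38.p6, and promoter windows were found for 6 of the 9 genes, all but Nos3, Prkg2 and Pde9a.

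A limma model (3.58.1, R 4.3.3) with 1 mean per group was fitted over all 24 arrays and all genes, with 20 residual degrees of freedom. Adjusted p-values are Benjamini-Hochberg over all genes within a contrast, and called means an adjusted p under 0.05. The code was tested on simulated data. The 9 genes, the pathway and marker lists and the alternatives were chosen with earlier results of these data known. Named genes are the 9, up to 4 called genes of each pathway list by smallest p, and for each of the 9 the 3 genes of highest r. The values of Gucy1a1 and Gucy1b1, which encode other cyclase subunits, were added after they were seen. The split of the 26-week arrays was also noticed in the data.

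No arrays of a group were duplicates, since they differed by 0.122 or more on average. Pairing by replicate number was checked as the correlation of deviations from group means. It was 0.13 to 0.44 for all 6 same-numbered pairs of the strains at 26 weeks, and -0.23 to 0.05 at 6 weeks. It ran from 0.01 to 0.41 between ages in BPH/2J and from -0.10 to 0.05 in BPN/3J. No correlation was computed between arrays of unlike number, and both strains share the split of the 26-week arrays. These values therefore cannot show whether arrays are paired by number, and the labels give no pairs. Alternatives were a fit of only the groups compared, averaged probe sets, dim genes left out (15818 kept, with a mean above 4.74), centring on the array median, quantile normalization, eBayes with trend and robust settings, array weights, the replicate block, the thalamus covariate and leaving out each array.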

Additional observations from a re-analysis of the deposited data

Results flagged for a closer look

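Each of 36 groups of 6 values, 9 genes in 4 groups, was checked for a single array apart from the rest, by Dixon's gap to the nearest array over the whole range. Chance marks about 1 in 20 groups, and 2 of 36 were marked. Prkg2 on replicate 5 of BPN/3J at 26 weeks read 6.96, with the nearest array at 7.35 and a gap of 0.749 of the range. The thalamus marker mean of that array was 8.82, the lowest of the 26-week arrays. Pde1b on replicate 2 of BPH/2J at 6 weeks read 10.16, with the nearest array at 9.94 and a gap of 0.665. The thalamus marker mean of that array was 9.30, the highest of its group.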

How the results depend on the processing

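At 26 weeks 0 of the 9 genes were called between the strains under every alternative run, the replicate block in all arrays and in the 26-week arrays alone included. In these fits 248 to 881 of all genes were called. The block in the 26-week arrays, the 26-week split and the fit without its 4 arrays were chosen after seeing the data. At 6 weeks the count of 6 was 0 with the thalamus covariate, 5 with quantile normalization, which ended the Ddah1 call (adjusted p = 0.0664), and 5 to 6 when 1 array was left out; array weights and the fit of only the 6-week arrays called Pde5a as well. For the interaction, where 0 were called, the count was 1 with dim genes left out, with quantile normalization, with trend and robust settings, with the replicate block and without the 4 arrays (Prkg1 in each), 2 with the term for the 26-week split, 4 with array weights and 0 to 5 when 1 array was left out. Over all genes the interaction calls were 6 in the main fit, 251 with the term for the split and 683 with array weights. The age count in BPH/2J, 5, was 0 with the thalamus covariate and 3 to 7 when 1 array was left out, and in BPN/3J, 2, it was 0 to 3. In BPH/2J 5 were higher and 2 lower with array weights (7475 of all genes called) and with the split term (7479). Averaged probe sets gave 4 and 2 (3341), and the fit without the 4 arrays 3 and 1 (7843). BPN/3J had 2 higher and 1 lower with array weights (6416), the split term (7325), the thalamus covariate (2526) and without the 4 arrays (6702). The main fit called 3362 of all genes in BPH/2J and 2445 in BPN/3J. With the replicate block, Prkg1 passed for the interaction (adjusted p = 0.039), Ddah1 passed for age in BPN/3J (-0.25, adjusted p = 0.0335) and Slc7a1 at 6 weeks did not (adjusted p = 0.0506); no other call of the 9 genes changed. In the 26-week arrays alone the block ended the Nos1ap call (adjusted p = 0.0506).

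Values that changed sign were of differences near 0 or of fits with the thalamus covariate. With that covariate Ddah1 with age in BPH/2J was -0.0722, and Prkg2 was 0.0028 at 6 weeks, -0.209 for the interaction and -0.262 with age in BPH/2J. Without the 4 arrays Prkg1 at 26 weeks was 0.0227. For the interaction Pde5a was 0.0235 with quantile normalization and 0.007 with array weights, which gave 0.0053 for Pde9a at 6 weeks. When 1 array was left out, Nos1 with age in BPN/3J ran from -0.0971 to 7e-04, and Nos3 ran from -0.0417 to 0.0848 at 26 weeks and from -0.112 to 0.0145 for the interaction. Prkg1 at 26 weeks ran from -0.0995 to 0.0658, Prkg2 with age in BPN/3J from -0.0896 to 0.0166, and Pde5a for the interaction from -0.0899 to 0.084. Pde9a ran from -0.0391 to 0.0596 at 26 weeks, from -0.0494 to 0.0059 at 6 weeks and from -0.017 to 0.0817 for the interaction. The cause of these changes was not tested. Over the named genes and alternatives, 2285 values kept their direction and side of the threshold, 128 lost a call, 38 gained one and 36 changed sign. The files give no detection measure per probe set, so how far dim values are compressed is unknown.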
